A study of Mus musculus with 15 samples.

Results

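The mouse collagen genes were followed across 5 groups of mouse embryonic fibroblasts that differed in the histone deacetylases HDAC1 and HDAC2. The 38 genes are a list of collagen chains, taken from 18193 gene symbols on the array. Each chain was read from the probe sets annotated to its symbol alone, and where a gene had several, from the one with the highest mean over the 15 arrays. All 38 had a probe set, and 34 passed the filter on dim signals, which asked for an intensity that beat the 40th percentile of its array in 3 or more of the 15. Col11a2, Col17a1, Col24a1 and Col25a1 did not pass it and were not tested. The genes were grouped by the assembly of their proteins into 11 fibrillar, 9 basement membrane, 3 beaded, 8 FACIT (fibril-associated), 3 short-chain network and 4 transmembrane chains.

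Collagens are secreted or membrane-bound proteins in which chains wind into a triple helix. Fibrillar collagens build the load-bearing fibrils of connective tissue, FACIT collagens sit on the surface of those fibrils, type IV chains form the sheet of the basement membrane, and type VI chains form beaded microfibrils. Fibroblasts are a main source of this matrix, and Col1a1, Col1a2 and Col3a1 are among their most abundant transcripts. HDAC1 and HDAC2 are sister deacetylases of histones that work inside several corepressor complexes, and one can stand in for the other in many tissues.

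RNA was measured on Affymetrix Mouse 430 2.0 arrays in primary male fibroblasts (MEF), with 3 arrays in each of 5 groups. In 4 groups the cells were HDAC1 fl/fl and had been transduced with a retrovirus for the tamoxifen-dependent recombinase Cre-ERT2 and with a second retrovirus for a micro-RNA. The control group had a scrambled micro-RNA and ethanol. The HDAC1 KO group had the scrambled micro-RNA and tamoxifen at 200 nM, which deletes HDAC1. The HDAC2 Kd group had a micro-RNA against HDAC2 and ethanol. The HDAC1 KO/HDAC2 Kd group, written KO/Kd here, had the micro-RNA against HDAC2 and tamoxifen. The fifth group was HDAC1 +/+ fibroblasts with tamoxifen, and the viruses these cells carried are not given in the sources used here. A comparison of KO or KO/Kd cells with the ethanol control therefore holds deletion and drug together, and these cannot be told apart within it. KO/Kd against KO compares cells that both had tamoxifen. Since no label ties the 3 arrays of a group to separate cultures, the spread behind each p-value is that of these samples and may be technical. In a bulk sample, fewer cells of a type and less RNA per cell cannot be told apart.

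The deposited values were linear intensities, with array medians of 24.1 to 30.7. Hdac1 fell from 3557 ± 101 (SD, n = 3) in control to 161 ± 19.8 in KO and 156 ± 48.6 in KO/Kd cells, and Hdac2 from 7051 ± 449 to 958 ± 62.1 in Kd and 1025 ± 9.88 in KO/Kd cells, so both targeted genes followed the labels. At least 7 of 8 fibroblast markers were above the 40th percentile on all 3 arrays of every group, and none of 5 osteoblast markers on the array was. The fibroblast list did not move as one: S100a4 read 20640 ± 267 in control and 948 ± 180 in KO/Kd cells and fell by 4.44, while Postn rose by 1.29 and Fap by 1.35. Other marker lists moved with the groups. The summed intensity of 8 smooth muscle and pericyte markers was 41530 to 43100 in control and 58910 to 62860 in KO/Kd cells, that of 7 chondrocyte markers was 461 to 538 and 1874 to 2088, and that of 8 endothelial markers was 106 to 118 and 168 to 206. The chondrocyte sum was mostly Acan, the cartilage proteoglycan, which was at 1812 ± 108 in KO/Kd and 1268 ± 218 in the +/+ tamoxifen cells against 349 ± 48.7 in control. Of the 8 endothelial markers, Kdr was above the 40th percentile on all 3 KO/Kd arrays and on at most 1 array of any other group, and Tek on 2 KO/Kd arrays. The part of these cell types in the collagen results was not tested.

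The stretch just upstream of a collagen gene is where its transcription is assembled, and its sequence is shown for 6 chains with different outcomes in KO/Kd cells. Col8a1 and Col8a2 are the partner chains of type VIII collagen, and both rose. Col3a1, Col11a1 and Col19a1 also rose, and Col6a1 fell. Each sequence is the 250 bases before the start site, 5′ to 3′ on the gene's strand, from RefSeq on GRCm38.p6. Capitals mark the letters of 3 motifs searched on both strands, with overlaps kept. They were CCAAT, the core of sites for the factor NF-Y, then GGGCGG, the core of sites for Sp1 and its relatives, and the TATA box as TATAAA.
Col8a1 (chr16:57754738-57754987, minus strand): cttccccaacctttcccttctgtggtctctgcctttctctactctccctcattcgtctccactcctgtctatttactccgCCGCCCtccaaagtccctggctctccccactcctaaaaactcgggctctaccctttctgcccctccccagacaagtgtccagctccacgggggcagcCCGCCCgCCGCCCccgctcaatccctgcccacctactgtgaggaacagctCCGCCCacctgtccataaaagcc
Col8a2 (chr4:126286544-126286793, plus strand): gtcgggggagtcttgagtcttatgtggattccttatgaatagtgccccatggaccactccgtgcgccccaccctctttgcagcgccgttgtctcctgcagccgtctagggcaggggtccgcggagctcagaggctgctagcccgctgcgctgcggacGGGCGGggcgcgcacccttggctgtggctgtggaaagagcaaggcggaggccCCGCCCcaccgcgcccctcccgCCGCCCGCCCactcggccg
Col3a1 (chr1:45311288-45311537, plus strand): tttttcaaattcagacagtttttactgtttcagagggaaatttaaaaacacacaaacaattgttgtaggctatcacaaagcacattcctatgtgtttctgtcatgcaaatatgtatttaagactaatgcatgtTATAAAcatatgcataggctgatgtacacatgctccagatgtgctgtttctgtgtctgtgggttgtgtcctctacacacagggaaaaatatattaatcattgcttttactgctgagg
Col11a1 (chr3:114030290-114030539, plus strand): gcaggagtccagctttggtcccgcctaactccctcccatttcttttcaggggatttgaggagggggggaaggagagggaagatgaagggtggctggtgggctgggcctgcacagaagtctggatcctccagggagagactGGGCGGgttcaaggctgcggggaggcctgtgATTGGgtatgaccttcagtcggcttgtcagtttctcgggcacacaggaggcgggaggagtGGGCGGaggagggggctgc
Col19a1 (chr1:24587438-24587687, minus strand): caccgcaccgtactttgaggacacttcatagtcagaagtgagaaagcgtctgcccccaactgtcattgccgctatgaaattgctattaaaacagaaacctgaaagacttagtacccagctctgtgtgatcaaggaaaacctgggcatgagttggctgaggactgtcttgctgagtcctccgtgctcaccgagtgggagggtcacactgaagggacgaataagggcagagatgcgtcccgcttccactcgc
Col6a1 (chr10:76726045-76726294, minus strand): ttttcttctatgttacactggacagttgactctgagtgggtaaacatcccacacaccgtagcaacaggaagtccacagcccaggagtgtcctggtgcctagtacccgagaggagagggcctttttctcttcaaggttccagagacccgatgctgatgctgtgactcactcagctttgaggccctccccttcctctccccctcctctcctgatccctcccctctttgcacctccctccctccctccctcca
Col8a1 and Col8a2 each held 4 matches to GGGCGG, Col3a1 held 1 match to TATAAA, and Col19a1 and Col6a1 held none of the 3 motifs. RefSeq windows were matched for 31 of the 38 genes, as 34 windows. GGGCGG was found in 19 of the 34 (55.9%), against 32.7% of all 32851 mouse windows of this length. CCAAT was found in 35.3% against 33.8%, and TATAAA in 14.7% against 12.4%. Among the 23 windows of genes that rose in KO/Kd cells, 14 held GGGCGG (60.9%). These counts describe letters in a window and carry no test.

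Loss of both enzymes was accompanied by higher RNA of most collagen genes. With limma and Benjamini-Hochberg adjustment over 13382 genes, 25 of the 34 tested collagen genes rose in KO/Kd cells against control and 3 fell, beside 46.2% of all tested genes that rose and 19.3% that fell (65.5% in all). A rise of at least 1 log2 unit was called for 17 of the 34, against 12.6% of all tested genes. The median difference was 1.03 log2 units over the 34 genes and 0.16 over all tested genes. The filter favours genes that are bright in 1 group, and Col4a3, Col4a4 and Col9a2 passed it on the KO/Kd arrays alone. Col14a1 was above the 40th percentile on 2 Kd and 3 KO/Kd arrays, and would not have passed without the latter. Without the filter, 26 of all 38 rose and 3 fell, against 38.4% and 14.1% of 18193 genes, and the median over the 38 was 0.48. All 3 KO/Kd arrays lay above the other 12 arrays for 22 of the 34 genes (30.4% of all tested genes) and below them for Col6a1 and Col6a2 (14.1%). Quantile normalization moved the median of all genes to -0.02 and that of the collagen genes to 0.82. It gave 20 higher and 6 lower collagen calls, beside 32.3% and 33.4% of all genes, so changes are to be read against a general shift of 0.16. The genes called lower under it were Col1a1, Col6a1, Col6a2, Col6a3, Col12a1 and Col16a1.

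**Figure D1:**
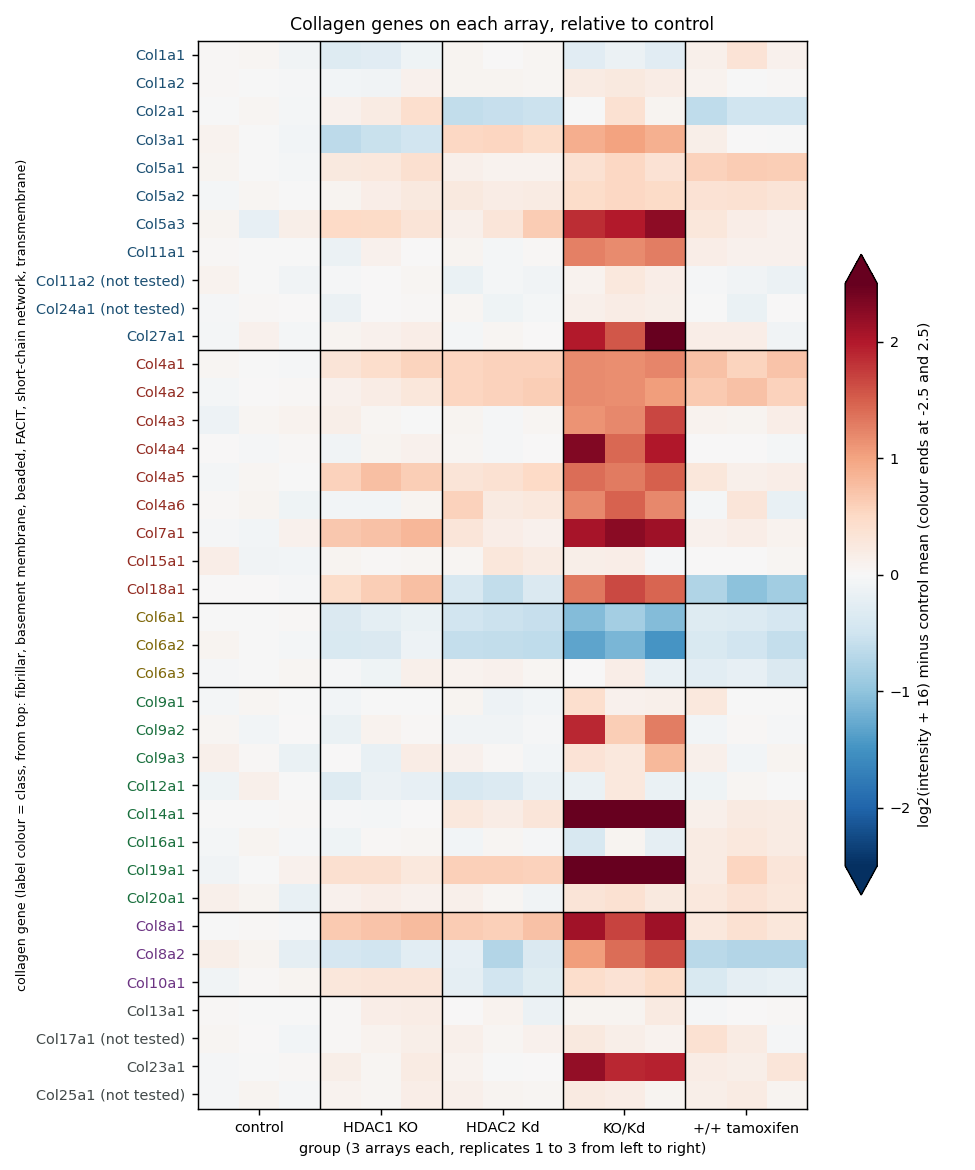
Each of the 38 collagen genes (rows, label colour by class) on each of the 15 arrays (columns, 3 per group), as log2(intensity + 16) minus the control mean. The KO/Kd columns are red for most genes, Col14a1 and Col19a1 lie past the end of the colour scale there, and Col6a1 and Col6a2 are blue.

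Among the 9 tested fibrillar chains, 7 rose in KO/Kd cells and Col1a1 fell, with a class median of 0.48. Of all tested genes, 46.2% rose and 19.3% fell. The chains of type I collagen, the main fibril of skin and bone, moved by little on their chosen probe sets. Col1a1 read 26900, 27400 and 24830 in control and 21710, 23700 and 21570 in KO/Kd cells, a difference of -0.24 ± 0.08 (SE, adjusted p = 0.0147). The groups did not overlap, but the call was lost without control replicate 2 or KO/Kd replicate 3, with differences of -0.22 to -0.21. Col1a2 read 41700, 40780 and 40160 in control and 46820, 48330 and 46760 in KO/Kd cells. Its rise of 0.21 ± 0.06 (SE, adjusted p = 0.0072) was not called after quantile normalization, where the difference was 0.

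Col3a1, which forms the thin fibrils of soft tissue, read 16610, 15470 and 14790 in control, 9887, 10560 and 11170 in KO, 22490, 22700 and 21490 in Kd and 29310, 31530 and 28840 in KO/Kd cells. The 4 groups were fully apart, with KO lowest and KO/Kd highest. KO/Kd exceeded control by 0.94 ± 0.07 (SE, adjusted p = 7.71e-09) and KO by 1.5 ± 0.07 (SE, adjusted p = 4.57e-11). Col11a1, a chain of the type XI collagen that nucleates cartilage fibrils, read 3939, 3844 and 3826 in control and 9290, 8834 and 9429 in KO/Kd cells, a rise of 1.24 ± 0.07 (SE, adjusted p = 1.34e-10). All arrays of the 4 other groups lay between 3498 and 4329, below the lowest KO/Kd array at 8834. Of the type V chains, which set fibril diameter, Col5a3 moved most: it read 140.4, 112.7 and 148.9 in control and 521.1, 571.1 and 690.6 in KO/Kd cells, a rise of 2.02 ± 0.13 (SE, adjusted p = 5.77e-10). Col5a1 and Col5a2 rose by 0.42 and 0.48. Col27a1, a fibrillar chain of developing cartilage, was dim in control at 18.84, 22.78 and 18.77, with 1 array above the 40th percentile, and read 127.1, 90.34 and 195.7 in KO/Kd cells, a rise of 2.03 ± 0.16 (SE, adjusted p = 1.32e-08). Col2a1, the main cartilage fibril chain, read 9105, 9470 and 8912 in control and 9154, 11910 and 9600 in KO/Kd cells, and its difference of 0.15 did not pass the test (adjusted p = 0.182).

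Of the 9 basement membrane chains, all tested, 8 rose in KO/Kd cells and none fell, with a class median of 1.33. This count includes Col4a3 and Col4a4, whose chosen probe sets passed the filter on the KO/Kd arrays alone. The median is the fitted value of Col4a3. Of all tested genes, 46.2% rose and 19.3% fell. Col4a1 and Col4a2 form the common type IV network. Col4a1 read 5859, 5672 and 5536 in control and 12860, 12770 and 13210 in KO/Kd cells. Col4a2 read 2001, 2088 and 2105 in control and 4685, 4670 and 4295 in KO/Kd cells. Their rises of 1.18 ± 0.07 (SE, adjusted p = 2.75e-10) and 1.13 ± 0.07 (SE, adjusted p = 3.03e-10) were nearly equal. Their RefSeq start sites lie 21 bases apart on opposite strands of chromosome 8 (GRCm38.p6). Col4a5 and Col4a6 are also divergent neighbours, with start sites 1343 bases apart on the X chromosome. Col4a5 read 2150, 2308 and 2213 in control and 5910, 5512 and 6319 in KO/Kd cells, a rise of 1.4 ± 0.08 (SE, adjusted p = 1.1e-10). Col4a6 read 33.32, 34.71 and 28.52 in control and 94.44, 117.8 and 94.85 in KO/Kd cells, a rise of 1.29 ± 0.12 (SE, adjusted p = 9.13e-08). Both pairs thus had all KO/Kd arrays above all control arrays.

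Col4a3 and Col4a4 are chains of the mature kidney glomerular membrane and neighbours on chromosome 1. Their chosen probe sets were below the 40th percentile on all 12 arrays outside the KO/Kd group. Col4a3 read 10.14, 13.57 and 14.45 in control and 46.74, 49.8 and 74.65 in KO/Kd cells, at least 2.92-fold above the 40th percentile of the control arrays. Col4a4 read 12.99, 12.5 and 13.42 in control and 128.6, 62.7 and 99.44 in KO/Kd cells, at least 4.86-fold above it. The fitted rises of 1.33 and 1.92 depend on the 16 units added before taking logs. Another probe set of Col4a4 was above the 40th percentile on 11 of the 15 arrays. It read 22.3 ± 4.17 (SD, n = 3) in control and 39.7 ± 8.58 in KO/Kd cells, a difference of 0.53. Col7a1, the anchoring fibril of the skin, read 739.8, 716.2 and 811.4 in control and 3221, 3660 and 3330 in KO/Kd cells. Its rise of 2.15 ± 0.08 (SE, adjusted p = 6.56e-13) was a factor of 4.43, and no group overlapped with KO/Kd. Col18a1, the source of endostatin, read 1303, 1298 and 1262 in control and 3242, 4092 and 3563 in KO/Kd cells, a rise of 1.48 ± 0.1 (SE, adjusted p = 1.76e-09). Col15a1, its close relative, stayed between 17.81 and 27.98 on all 15 arrays and did not pass the test.

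Of the 8 FACIT chains, 6 rose in KO/Kd cells and none fell, with a class median of 0.39. The counts of this class include Col9a2 and Col14a1, which needed the KO/Kd arrays to pass the filter. Of all tested genes, 46.2% rose and 19.3% fell. After quantile normalization 3 were called higher, Col9a2, Col14a1 and Col19a1, and 2 lower, Col12a1 at -0.25 and Col16a1 at -0.39. Over all tested genes the shares were then 32.3% higher and 33.4% lower. Col14a1, which binds the surface of type I fibrils, read 13.45, 13.48 and 14.31 in control, 13.25, 12.78 and 13.87 in KO, 19.8, 17.99 and 20.48 in Kd, 16.27, 18.88 and 18.24 in +/+ tamoxifen and 1162, 1477 and 1322 in KO/Kd cells. Control, KO and +/+ tamoxifen arrays were all below the 40th percentile, so the rise was at least 68.8-fold. Only 2 Kd arrays and the 3 KO/Kd arrays were above that percentile, so Col14a1 passed the filter through the KO/Kd arrays. The fitted difference was 5.48 ± 0.08 (SE), given without a p for that reason. Col19a1, a chain known from embryonic muscle, read 15.73, 17.71 and 20.55 in control, 28.9, 28.77 and 24.52 in KO, 35.16, 35.23 and 34.43 in Kd and 293.4, 188.9 and 306.6 in KO/Kd cells. KO/Kd lay far above the rest, with a rise of 3.01 ± 0.13 (SE, adjusted p = 9.52e-12). Col9a2, a chain of the type IX collagen of cartilage, was below the 40th percentile in all other groups. It read 18.12, 15.4 and 16.88 in control and 105.1, 34.06 and 64.03 in KO/Kd cells, at least 3.2-fold above that percentile, and the KO/Kd arrays themselves ranged widely. The other type IX chains were near the detection limit. On the chosen probe sets Col9a3 read at most 56.32 on any array, with a difference of 0.47, and Col9a1 at most 38.27, with 0.22 (adjusted p = 0.0479). Neither call held after quantile normalization, and that of Col9a1 was lost without control replicate 1, 2 or 3 or KO/Kd replicate 1 (0.12 to 0.24). The other Col9a1 probe set was above the 40th percentile on 3 arrays. It read 15.1 ± 1.69 (SD, n = 3) in control and 39.5 ± 3.58 in KO/Kd cells, a difference of 0.84 with no test. Col20a1, also near that limit, differed by 0.32 from control and by 0.02 from the +/+ tamoxifen cells. The latter did not pass, nor did the former after quantile normalization (adjusted p = 0.0761).

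Col12a1, which like Col14a1 binds the surface of fibrils, read 3094, 3651 and 3328 in control and 2999, 4000 and 2992 in KO/Kd cells. The groups overlapped, and the difference of -0.02 did not pass the test. Col16a1 did not pass either, at -0.19.

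The 3 short-chain network collagens all rose in KO/Kd cells, beside 46.2% of all tested genes, with a class median of 1.35. Col8a1 read 3359, 3474 and 3329 in control and 14620, 11020 and 14680 in KO/Kd cells, a rise of 1.97 ± 0.09 (SE, adjusted p = 2.11e-11). Its partner Col8a2 read 476.6, 453.5 and 367.7 in control and 898.8, 1157 and 1347 in KO/Kd cells, a rise of 1.35 ± 0.14 (SE, adjusted p = 3.66e-07). All KO/Kd arrays lay above all other arrays for both chains of this network, known from vessel walls and from Descemet's membrane of the cornea. Col10a1, the chain of hypertrophic cartilage, stayed dim at 21.21 to 56.25 over all arrays and rose by 0.43 ± 0.08 (SE, adjusted p = 0.00012), a call lost after quantile normalization (adjusted p = 0.207). Among the transmembrane chains, Col23a1 read 19.66, 19.98 and 21.23 in control and 149.8, 118.1 and 121.4 in KO/Kd cells, a rise of 2.00 ± 0.08 (SE, adjusted p = 3.37e-12). Col13a1, a transmembrane chain of the neuromuscular junction, did not pass the test at 0.12.

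The beaded type VI chains went the other way. Col6a1 read 12630, 12540 and 12940 in control, 9865, 10700 and 11300 in KO, 9160, 8718 and 8565 in Kd and 6014, 7057 and 5948 in KO/Kd cells. Col6a2 read 7517, 7134 and 6917, 5528, 5621 and 6539, 4769, 4654 and 4628 and 2876, 3257 and 2591 in the same order. For both genes the control arrays were the highest of these 4 groups and the KO/Kd arrays the lowest. The differences of KO/Kd from control were -1.01 ± 0.08 (SE, adjusted p = 5.71e-09) for Col6a1 and -1.31 ± 0.09 (SE, adjusted p = 1.68e-09) for Col6a2. Col6a3, the third chain of the same heterotrimer, read 13860, 14200 and 14640 in control and 14280, 15860 and 12590 in KO/Kd cells, with overlapping groups and a difference of 0.00 ± 0.08 (SE, adjusted p = 0.963). After quantile normalization Col6a3 was called lower, at -0.21. Col6a2 and Col6a1 are adjacent on chromosome 10. Col18a1, which rose, lies on the same chromosome with 2 protein-coding genes between it and Col6a1 in the RefSeq order. A link between direction and position was not tested.

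**Figure D2:**
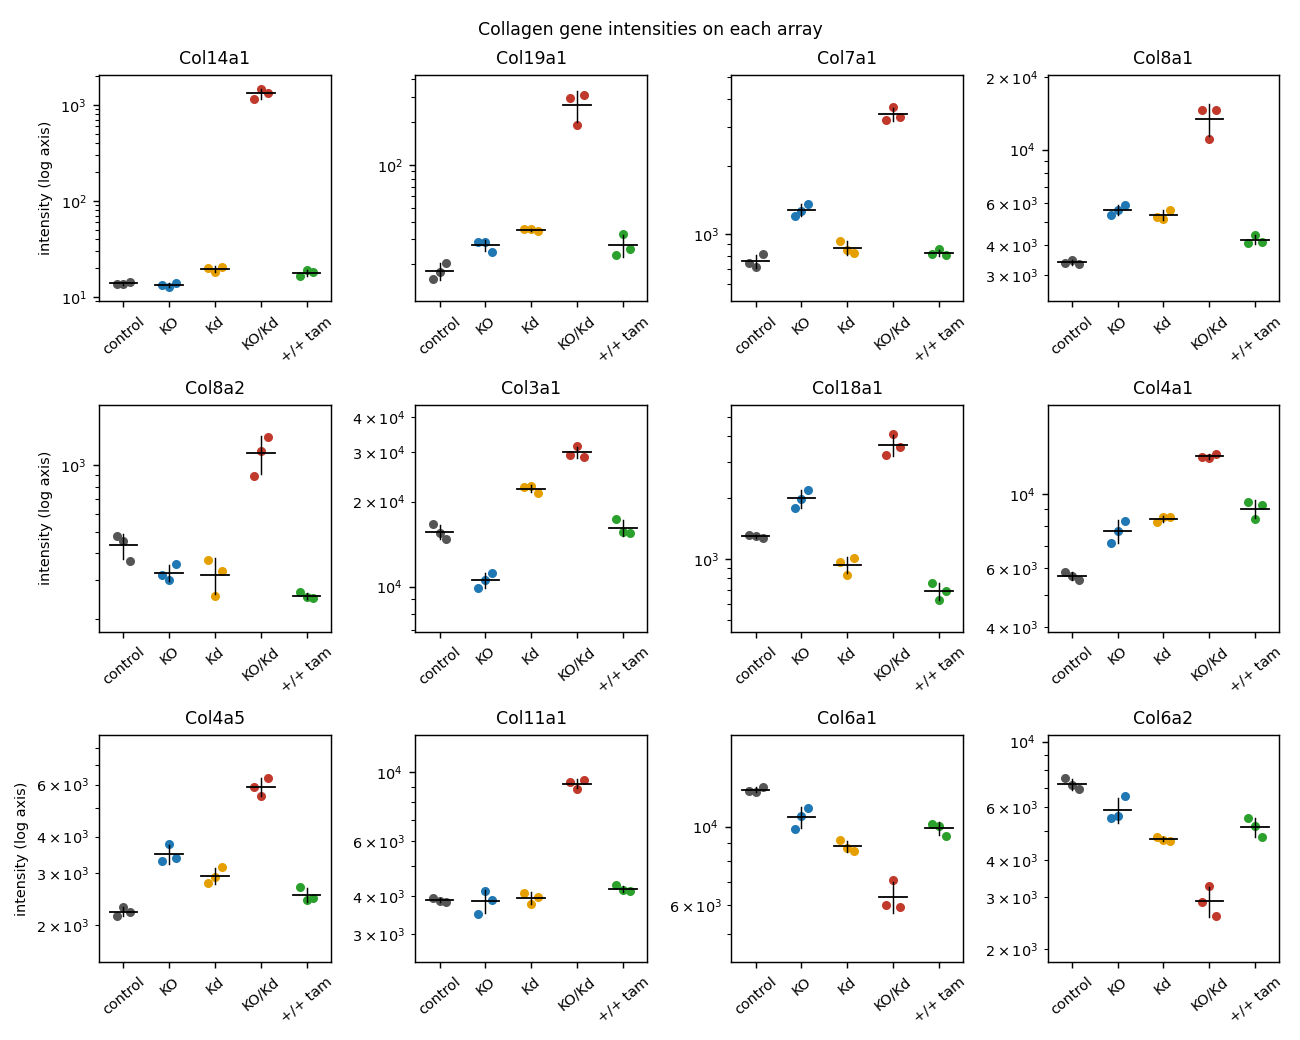
Intensity on a log axis for 12 collagen genes on each of the 15 arrays, with the group mean (horizontal line) and SD (vertical line, n = 3). KO/Kd arrays are the highest for 10 genes and the lowest for Col6a1 and Col6a2; each panel has its own axis, and heights cannot be compared between genes.

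Loss of HDAC1 alone moved fewer collagen genes and by less. In KO against control, 9 of 34 rose and 4 fell, beside 24.2% of all tested genes called (19.6% higher, 4.66% lower), and no collagen gene changed by 1 log2 unit. Col7a1 read 1206, 1272 and 1359 in KO cells, a rise of 0.75 ± 0.08 (SE, adjusted p = 5.09e-06). Col8a1 read 5332, 5576 and 5871, a rise of 0.72 ± 0.09 (SE, adjusted p = 4.63e-05). Col4a5 read 3304, 3778 and 3392, a rise of 0.65 ± 0.08 (SE, adjusted p = 2.06e-05), and Col18a1 read 1781, 1975 and 2187, a rise of 0.61 ± 0.1 (SE, adjusted p = 0.000382). For these 4 genes no KO array overlapped with control. Col4a1 rose by 0.44 ± 0.07 (SE, adjusted p = 0.000266). Col5a3 rose by 0.43 ± 0.13 (SE, adjusted p = 0.0199), a call lost without control replicate 2, KO replicate 1 or KO replicate 2 (0.33 to 0.41). Col3a1 was the chain that fell most, by 0.57 ± 0.07 (SE, adjusted p = 3.91e-05). Col6a2, Col6a1 and Col1a1 also fell, at -0.29, -0.26 and -0.24. Each of these 3 calls was lost when single arrays were left out: Col6a2 and Col1a1 without control replicate 1 or 2 or KO replicate 1 or 2, with adjusted p-values up to 0.0979 and 0.127, and Col6a1 without control replicate 3 or KO replicate 1, up to 0.066. Quantile normalization gave 6 higher and 6 lower calls, beside 14% and 14.5% of all tested genes. None of the 8 FACIT chains was called in KO cells, beside 24.2% of all tested genes. Of the 9 basement membrane chains 5 rose, beside 19.6% of all tested genes. The fifth of these, Col4a2, was at 0.19 ± 0.07 (SE, adjusted p = 0.0485). That call was lost without control replicate 1, 2 or 3 or KO replicate 2 or 3 (0.15 to 0.2) and after quantile normalization (0.08). The lowest and highest FACIT values were -0.23 ± 0.1 (SE, adjusted p = 0.134) for Col12a1 and 0.35 ± 0.13 (SE, adjusted p = 0.0651) for Col19a1.

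Knockdown of HDAC2 alone called as many collagen genes in a comparison with fewer calls overall. In Kd against control, 8 of 34 rose and 5 fell, beside 10.6% of all tested genes called (7.55% higher, 3.04% lower). Both groups had ethanol. Col8a1 read 5243, 5141 and 5610 in Kd cells, a rise of 0.65 ± 0.09 (SE, adjusted p = 0.000191), and no Kd array overlapped with control. Col19a1 rose by 0.59 ± 0.13 (SE, adjusted p = 0.00854), Col4a2 by 0.58 ± 0.07 (SE, adjusted p = 2.16e-05), Col4a1 by 0.57 ± 0.07 (SE, adjusted p = 3.96e-05), Col3a1 by 0.51 ± 0.07 (SE, adjusted p = 0.000177) and Col4a5 by 0.4 ± 0.08 (SE, adjusted p = 0.00212). The Col19a1 call was lost when its probe sets were averaged. Col6a2 fell by 0.62 ± 0.09 (SE, adjusted p = 0.000201), Col2a1 by 0.58 ± 0.09 (SE, adjusted p = 0.000682), Col6a1 by 0.53 ± 0.08 (SE, adjusted p = 0.000196) and Col18a1 by 0.46 ± 0.1 (SE, adjusted p = 0.00704). Col2a1 read 5955, 6179 and 6273 in Kd cells, with no array near the control values of 8912 to 9470. Col10a1 fell by 0.33 ± 0.08 (SE, adjusted p = 0.00922) and was not called without Kd replicate 2 (-0.26). The small rises of Col5a2 and Col14a1, 0.21 and 0.25, were lost when any 1 of the 6 arrays was left out (0.19 to 0.24 and 0.23 to 0.28). Some of these differences were also seen in +/+ tamoxifen cells against the same control arrays. There Col4a1 was at 0.67, Col4a2 at 0.65, Col2a1 at -0.54, Col6a2 at -0.48, Col6a1 at -0.36 and Col18a1 at -0.88. Others were smaller there, with Col8a1 at 0.31, Col19a1 at 0.35, Col4a5 at 0.19 and Col3a1 at 0.05. The cause of the shared differences was not tested.

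Several chains had opposite values in the single-enzyme groups, and these comparisons share the control arrays. Col3a1 was at -0.57 in KO and 0.51 in Kd cells, and Col18a1 at 0.61 and -0.46. Col10a1 was at 0.29 and -0.33, although the first was not called without control replicate 1 (0.25), after quantile normalization (0.17), after centring on the median (0.21) or with array weights (adjusted p = 0.18). Each of these 3 chains was called in both comparisons. Col8a2 was at -0.39 in KO and -0.43 in Kd cells, neither of which passed the test (adjusted p = 0.0587 and 0.0669).

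**Figure D3:**
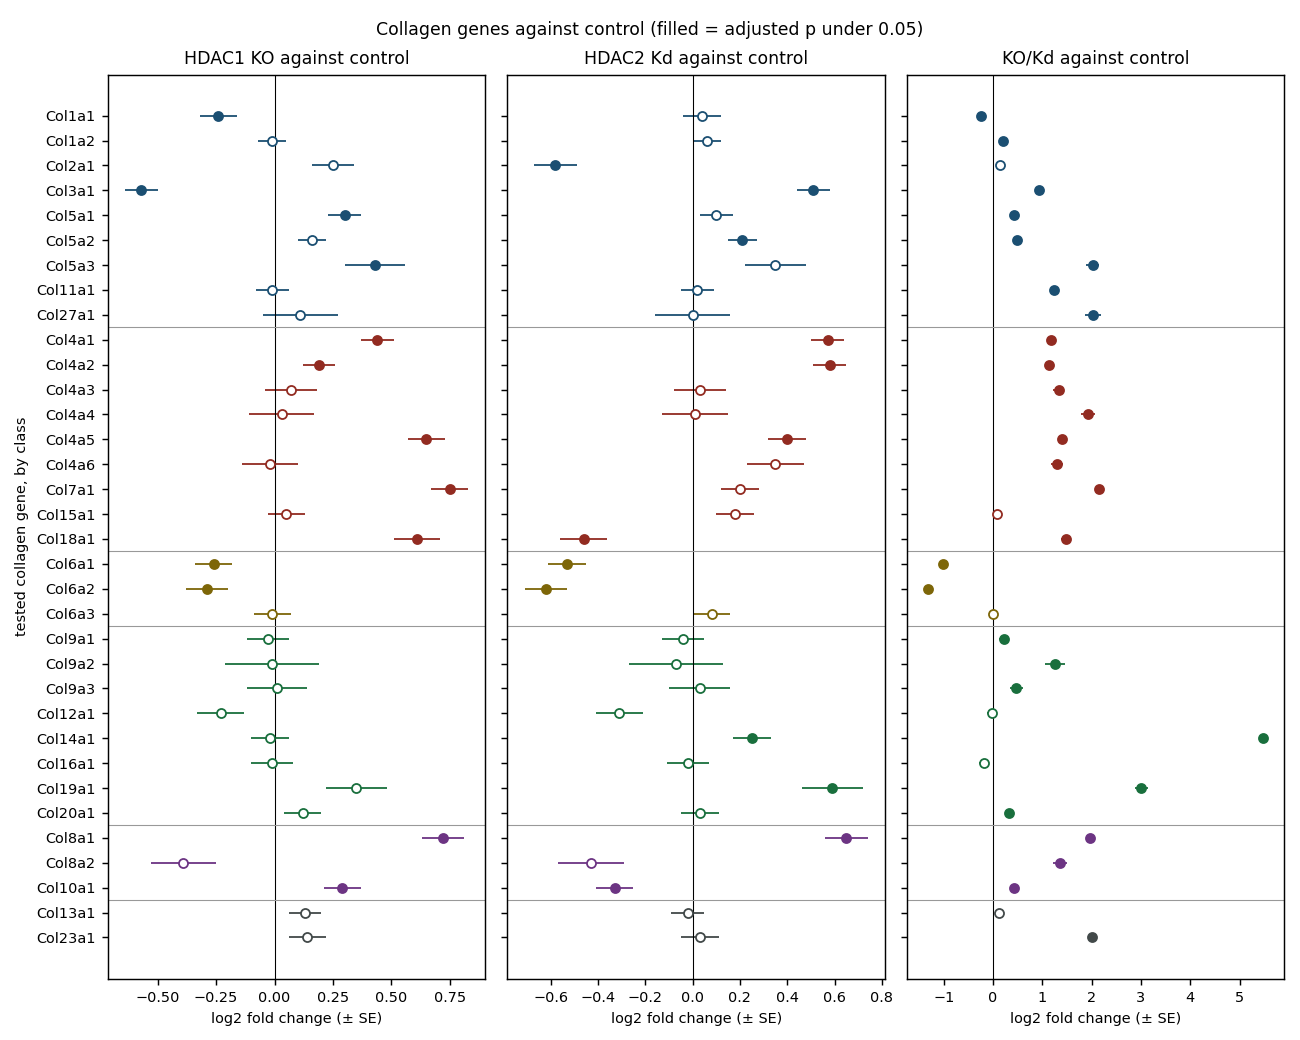
Log2 fold change against control (horizontal axis, bars are SE) for the 34 tested collagen genes in KO, Kd and KO/Kd cells, coloured by class, with filled points where the adjusted p is under 0.05. The axes differ between panels: KO and Kd values stay within 1 log2 unit of 0, while 17 genes pass 1 in KO/Kd cells and Col14a1 reaches 5.48.

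Whether HDAC1 deletion acted differently in knockdown cells was tested as the deletion effect in knockdown cells minus that in control cells. In this term tamoxifen was added on both sides. It was above 0 for 20 of the 34 tested collagen genes and below 0 for 1, beside 43% of all tested genes called (25.8% above 0, 17.2% below). Among the highest values were those of Col14a1 at 5.25 ± 0.11 (SE), Col8a2 at 2.17 ± 0.2 (SE, adjusted p = 3.62e-07), Col19a1 at 2.07 ± 0.19 (SE, adjusted p = 2.73e-07), Col27a1 at 1.93 ± 0.23 (SE, adjusted p = 5.34e-06) and Col23a1 at 1.83 ± 0.11 (SE, adjusted p = 3.94e-09). Col4a4 was at 1.87, Col9a2 at 1.34 and Col4a3 at 1.24. These 3 passed the filter on the KO/Kd arrays alone by their chosen probe sets. They are given without a p, as is Col14a1, which needed the KO/Kd arrays to pass it. Deletion moved Col8a2 by -0.39 in control cells, which did not pass, and by 1.78 in knockdown cells. For Col3a1 the deletion effect changed sign, from -0.57 in control to 0.43 in knockdown cells, both called. Col6a2 was the gene below 0, at -0.4 ± 0.13 (SE, adjusted p = 0.0162), since deletion lowered it by 0.29 in control and by 0.69 in knockdown cells. For Col4a1 the term was 0.18 ± 0.1 (SE, adjusted p = 0.159) and did not pass. For Col5a1 it was 0.01 ± 0.09 (SE, adjusted p = 0.933), with deletion effects of 0.3 in control and 0.31 in knockdown cells.

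In KO/Kd against Kd cells 27 of 34 rose and 3 fell, beside 63.4% of all tested genes called (42.9% higher, 20.5% lower). Quantile normalization turned this to 22 higher and 6 lower, beside 31.4% and 32.6% of all tested genes. The highest were Col14a1 at 5.23, Col19a1 at 2.42, Col27a1 at 2.04 and Col23a1 at 1.97, and those that fell were Col6a2, Col6a1 and Col1a1 at -0.69, -0.48 and -0.28. In KO/Kd against KO cells, which both had tamoxifen, 22 of 34 rose and 2 fell, beside 56.8% of all tested genes called (36.2% higher, 20.6% lower). Col14a1 exceeded the KO level by 5.5 ± 0.08 (SE), Col19a1 by 2.66 ± 0.13 (SE, adjusted p = 7.49e-11) and Col27a1 by 1.92 ± 0.16 (SE, adjusted p = 4.04e-08). Col6a2 fell by 1.02 ± 0.09 (SE, adjusted p = 5.33e-08) and Col6a1 by 0.75 ± 0.08 (SE, adjusted p = 3.15e-07). Counting genes higher in KO/Kd cells than in each of the 4 other groups and with the interaction term above 0 gave 17 of the 34, beside 22.8% of all tested genes. They were Col3a1, Col4a2, Col4a3, Col4a4, Col4a5, Col4a6, Col5a3, Col7a1, Col8a1, Col8a2, Col9a2, Col11a1, Col14a1, Col18a1, Col19a1, Col23a1 and Col27a1. The 17 include Col4a3, Col4a4 and Col9a2, whose chosen probe sets passed the filter on the KO/Kd arrays alone. Col14a1, also among them, needed those arrays to pass it. Without the filter the count was 18 of all 38, with Col11a2 added, beside 16.8% of 18193 genes. Of the 34, Col6a1 and Col6a2 were lower than in each other group, beside 14.2% of all tested genes.

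**Figure D4:**
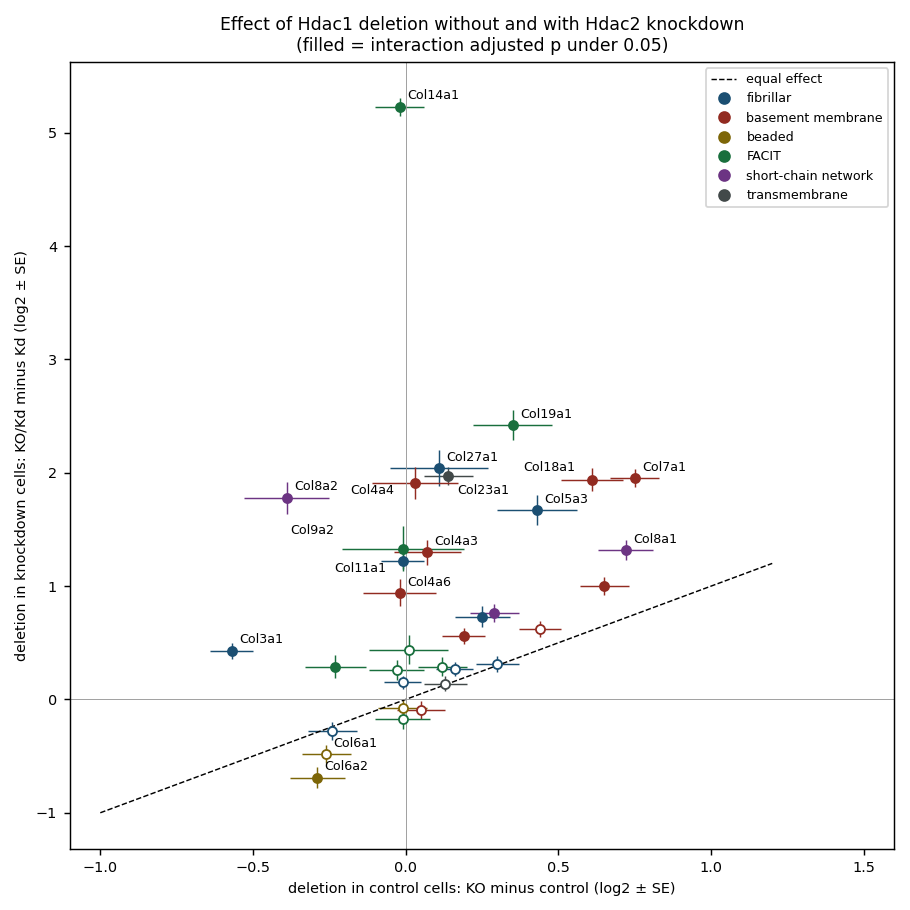
Log2 effect of HDAC1 deletion in control cells (horizontal axis, KO minus control) and in knockdown cells (vertical axis, KO/Kd minus Kd) for the 34 tested collagen genes, with SE bars; filled points passed the interaction test. On the dashed line both effects are equal; Col14a1 is highest above it at 5.23 against -0.02, and Col6a2 lies below it.

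The +/+ tamoxifen cells showed how far collagen levels could move without loss of either enzyme, although they also differ from control in the HDAC1 allele and possibly in their viruses. Against control, 6 of 34 were higher and 7 lower, beside 28.5% of all tested genes called (21.5% higher, 6.93% lower). Col4a1 read 9452, 8394 and 9294 in these cells, 0.67 above control, and Col4a2 read 3240, 3423 and 3106, 0.65 above. No array of either gene overlapped with the KO arrays, which were lower: in KO against +/+ tamoxifen cells Col4a1 was at -0.23 and Col4a2 at -0.46, both called. The first of these was lost without +/+ tamoxifen replicate 1 or 3 or KO replicate 1 or 2 (-0.23 to -0.17). Col5a1 was also higher in +/+ tamoxifen cells than in control, by 0.61 ± 0.07 (SE, adjusted p = 4.45e-06), and was at -0.19 ± 0.07 (SE, adjusted p = 0.0176) in KO/Kd against +/+ tamoxifen cells. Col18a1 read 757.1, 625.8 and 697.7, the lowest of all groups, at -0.88 ± 0.1 (SE, adjusted p = 8.15e-06) against control. Col8a2 was at -0.71 ± 0.14 (SE, adjusted p = 0.00138) and Col2a1 at -0.54 ± 0.09 (SE, adjusted p = 0.000486). All 3 type VI chains were lower than in control, Col6a2 at -0.48, Col6a1 at -0.36 and Col6a3 at -0.28. The Col6a3 call was lost without +/+ tamoxifen replicate 3 or control replicate 3 (-0.26 to -0.24).

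In KO against +/+ tamoxifen cells, 7 of 34 were higher and 6 lower, beside 24.1% of all tested genes called (12.8% higher, 11.3% lower). Col18a1 was highest at 1.49 ± 0.1 (SE, adjusted p = 1.62e-08), followed by Col2a1 at 0.79, Col7a1 at 0.62, Col10a1 at 0.56, Col4a5 at 0.46 and Col8a1 at 0.41. The Col8a1 call was lost when its probe sets were averaged. Col3a1 was lowest at -0.61 ± 0.07 (SE, adjusted p = 9.64e-06). Col6a1 and Col6a2 were at 0.1 and 0.19 here and did not pass. With the +/+ tamoxifen cells in place of control, 23 of 34 rose in KO/Kd cells and 5 fell, beside 61.8% of all tested genes called (38.3% higher, 23.5% lower). The 5 were Col6a2 at -0.83, Col6a1 at -0.65, Col1a1 at -0.43, Col16a1 at -0.41 and Col5a1 at -0.19. Col14a1 was again highest at 5.3, followed by Col19a1 at 2.66 and Col18a1 at 2.36.

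The 38 genes were covered by 74 probe sets, and 24 genes had more than 1. Values from the extra probe sets are given as differences on the same log2 scale, with no test. All 3 probe sets of Col8a1 rose in KO/Kd cells, by 1.97, 2.21 and 2.64, and both of Col11a1, by 1.24 and 1.09. All 3 of Col14a1 rose, by 5.48, 2.29 and 1.4, in each case from dim control values, so the size of its rise differed between probe sets and its direction did not. Col3a1 rose by 0.94 on the chosen probe set and by 1.91 on a dimmer one, and Col5a1 by 0.42, 0.96 and 1.1. Col9a1 rose by 0.22 on the chosen probe set and by 0.84 on the other. For other chains the chosen probe set gave the largest rise. Col4a4 rose by 1.92, 1.59 and 0.53. Col19a1 rose by 3.01, 1.79 and 0.33, Col23a1 by 2.00, 1.09 and 0.39, Col27a1 by 2.03 and 1.31, and Col5a3 by 2.02 and 0.14. The probe sets at 0.33, 0.39 and 0.14 were above the 40th percentile on fewer than 3 arrays. Both probe sets of Col6a2 fell, by 1.31 and 1.72. Type I collagen was less uniform. A dim probe set of Col1a2 was 0.72 lower in KO/Kd cells, where the 2 bright ones were 0.21 and 0.33 higher. The other probe set of Col1a1 was 0.52 lower in Kd cells, where the chosen one differed by 0.04. Averaging over probe sets turned Col1a2 in KO/Kd against control to -0.06, which did not pass.

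**Figure D5:**
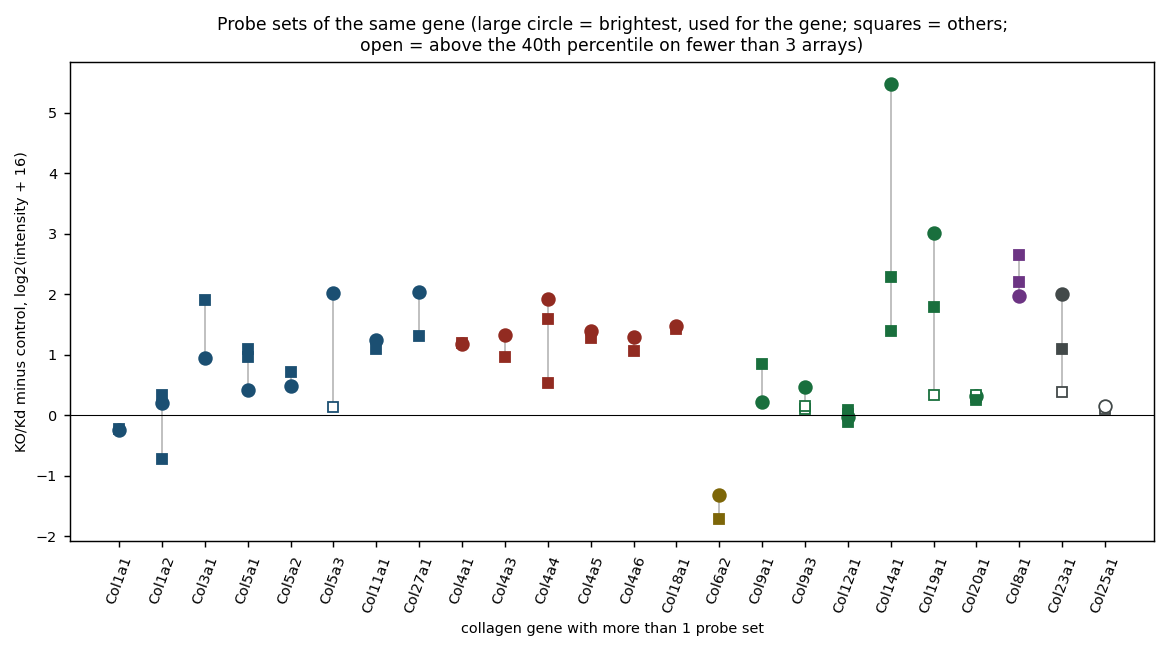
KO/Kd minus control, as log2(intensity + 16), for every probe set of the 24 collagen genes with more than 1, coloured by class. Large circles are the probe sets used for the gene and squares are the others; probe sets of Col1a2 lie on both sides of 0, while those of Col8a1, Col14a1 and Col6a2 keep one side.

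Collagen chains need enzymes and chaperones in the endoplasmic reticulum, trimming and cross-linking outside the cell, and receptors that sense or clear them. Of 18 tested genes for modification, folding and export, 10 rose in KO/Kd cells against control and 1 fell. Over all tested genes 46.2% rose and 19.3% fell (65.5% called). Plod1, a lysyl hydroxylase that prepares chains for cross-linking, rose from 532 ± 13.2 to 1605 ± 93.5 (SD, n = 3), by 1.56. Fkbp14, a prolyl isomerase, rose by 1.08, Plod2 by 1.04, and P4ha3, a subunit of prolyl 4-hydroxylase, fell by 1.24. Serpinh1, the collagen chaperone Hsp47, was at 26630 ± 526 in control and 28640 ± 566 in KO/Kd cells and did not pass (adjusted p = 0.156). In KO and Kd cells 2 and 4 of the 18 rose and none fell, and 10 rose in the +/+ tamoxifen cells, beside 19.6%, 7.55% and 21.5% of all tested genes that rose.

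Of 9 tested genes for processing and cross-linking outside the cell, 5 rose and 2 fell in KO/Kd cells. The procollagen C-proteinases Tll1 and Bmp1 rose by 2.32 and 1.59, with Bmp1 at 812 ± 22.9 in control and 2477 ± 19.6 in KO/Kd cells. Tll1 was at 489 ± 83.4 in control and 2498 ± 318 in KO/Kd cells. It was also above control in KO (1061 ± 73.4), Kd (1055 ± 61.6) and +/+ tamoxifen cells (1128 ± 98.9). Pcolce2, an enhancer of these proteinases, was at 1135 ± 122 in control and 62.3 ± 11.5 in KO/Kd cells and fell by 3.88, and the lysyl oxidase relative Loxl4 fell by 1.98. Lox itself rose by 0.44. Of 7 tested receptors and uptake genes, 5 rose and none fell, with the integrin chain Itga1 at 1.36 and the uptake receptor Mrc2 at 1.06. Of 19 tested transcription factors known to act on collagen genes, 10 rose and 4 fell. Mkx, a tendon regulator, rose by 3.05, Fli1 by 1.56 and Smad3 by 1.00. Sp1 fell by 0.34 and Nfyc, a subunit of the factor that binds CCAAT, by 0.55. Other members of these factors did not fall alike. Nfyb, another subunit, was at 1111 ± 16.3 (SD, n = 3) in control and 1599 ± 211 in KO/Kd cells. Nfya was at 717 ± 7.47 and 676 ± 85.4, and Sp3, a relative of Sp1, at 1081 ± 59.9 and 1089 ± 29.6. The counts of these lists stand beside 46.2% of all tested genes that rose in KO/Kd cells and 19.3% that fell (65.5% called). In +/+ tamoxifen cells against control, 4 of the 9 processing genes were higher and 3 lower. Of the 7 receptors and uptake genes 1 was higher and 2 lower, and of the 19 factors 4 and 3. Over all tested genes 21.5% were higher there and 6.93% lower.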

How the data were processed

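RNA of 15 fibroblast samples in 5 groups of 3 had been hybridised to Affymetrix Mouse 430 2.0 arrays after a 1-cycle biotin labelling, as the labels' protocols state. The deposited table gave 1 linear intensity per probe set and array for 45037 probe sets. The authors' summary and scaling steps behind them are not given in the sources used here. Of the probe sets, 34945 had 1 gene symbol in the platform annotation, 932 had several and 9160 had none, and those with several or none were left out.

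Values were analysed as log2(intensity + 16), a scale that understates the change of dim genes. A gene was kept (13382 in all) where 3 or more arrays had it above their own 40th percentile, and read from its probe set with the highest mean. limma 3.58.1 in R 4.3.3 fitted 1 mean per group over all 15 arrays, with Benjamini-Hochberg adjustment over all kept genes and a threshold of 0.05, and 8 comparisons. The number of arrays limits the precision. On simulated data for KO/Kd against control over 13382 genes, 13.2% of true changes of 0.25 log2 units were recovered. The share was 73.2% for changes of 0.5 and 99.6% for those of 1. Changes were planted in a small part of the genes, whereas 65.5% were called in the data, so recovery there may differ.

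Alternatives changed the normalization, the filter, the probe set rule, the constant added before logs, the model, and left out each array in turn. KO/Kd against the +/+ tamoxifen cells was added after seeing the data. The reported fit did not pair arrays by replicate number. Of 30 pairs of same-numbered arrays, 4 correlated above 0.1 once group means were removed (-0.161 to 0.135). Differently numbered arrays were not compared, so these values cannot show whether the samples were paired. No 2 arrays were identical.

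The collagen genes, their classes and the other gene lists were chosen with earlier results of these data known. Per-array values are given for collagen genes changed by at least 1 log2 unit against control and for the chain with the highest mean intensity in each class, which ranks probe sets and not RNA levels, full statistics for up to 6 called genes per direction and comparison, and up to 4 genes per pathway list. Col3a1, Col1a1 and Col2a1 are given per array beyond this rule. Serpinh1, Lox, Sp1, Sp3, Nfya, Nfyb and Nfyc are given with their values beyond it. All of these were chosen after their values were seen. Promoter windows came from RefSeq, GRCm38.p6.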

Additional observations from a re-analysis of the deposited data

Results flagged for a closer look

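The effect of HDAC1 deletion differed between knockdown cells and control cells, by the interaction term of limma, for 21 collagen genes. As log2 differences of the deletion effects, the FACIT chains were at 5.25 for Col14a1, 2.07 for Col19a1, 1.34 for Col9a2 and 0.51 for Col12a1. The basement membrane chains were at 1.87 for Col4a4, 1.33 for Col18a1, 1.24 for Col4a3, 1.2 for Col7a1, 0.96 for Col4a6, 0.37 for Col4a2 and 0.35 for Col4a5. The fibrillar chains were at 1.93 for Col27a1, 1.24 for Col5a3, 1.23 for Col11a1, 0.99 for Col3a1 and 0.48 for Col2a1. The short-chain network chains were at 2.17 for Col8a2, 0.6 for Col8a1 and 0.47 for Col10a1, and the transmembrane chain Col23a1 was at 1.83. Col6a2, of the beaded class, was at -0.40. Outside Col14a1, adjusted p-values ran from 3.94e-09 for Col23a1 to 0.0162 for Col6a2. The call of Col4a5 was lost after quantile normalization (adjusted p = 0.0591) and that of Col12a1 when its probe sets were averaged (adjusted p = 0.0646). The chosen probe sets of Col4a3, Col4a4 and Col9a2 passed the filter on the KO/Kd arrays alone, and Col14a1 needed those arrays to pass it. Groups of 3 arrays were not searched for outlying arrays.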

How the results depend on the processing

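The number of collagen genes called stayed within 1.5 times the number reported in each of the 8 comparisons under every alternative but 1. Array weights, whose estimation stopped before convergence, gave 7 calls in KO against control (6 higher, 1 lower) in place of 13, and 20 in +/+ tamoxifen against control in place of 13. Leaving out 1 array at a time gave 26 to 29 calls for KO/Kd against control, 27 to 29 against Kd, 23 to 26 against KO, 21 to 25 for the interaction, 9 to 12 for KO, 10 to 13 for Kd, 9 to 13 for +/+ tamoxifen against control and 10 to 12 for KO against +/+ tamoxifen. The fit with the replicate number as a block gave 28, 29, 25, 21, 11, 12, 13 and 12 calls in the same order. Among values called in the reported or the alternative fit, directions turned for 4 genes. Values called in neither, such as those of Col2a1, Col13a1 and Col15a1, also changed sign. For Col1a2, averaging probe sets gave -0.06 against control, -0.06 against Kd and 0 against KO for KO/Kd cells. Quantile normalization gave 0 and -0.04 for the first 2 of these, and centring arrays on the median gave -0.01 against Kd. For Col1a1, averaging gave -0.24 in Kd against control and 0.01 in KO/Kd against Kd. With +/+ tamoxifen cells as the reference for KO/Kd, Col5a1 was at -0.19 and Col6a3 at 0.28. The cause was not tested. The chosen probe sets of Col9a1, Col9a3, Col10a1 and Col20a1 lie close to the 40th percentile of 18.8 to 22.5, which limits what can be said of these genes.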

Other observations

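The summed intensity of 5 skeletal muscle markers was 1877 to 2301 in control, 2879 to 3507 in KO, 1490 to 1580 in Kd, 1220 to 1266 in +/+ tamoxifen and 270 to 408 in KO/Kd cells, so that KO/Kd arrays lay apart from all others. That sum was mostly Acta1, at 2051 ± 216 (SD, n = 3) in control and 265 ± 81.5 in KO/Kd cells, while Myog and Des were called higher in KO/Kd cells, by 0.55 and 0.30 on the log2 scale, and 3 of the 5 markers were above the 40th percentile on all KO/Kd arrays against 1 in control. The sum of 7 epithelial markers was 428 to 537 in control, 734 to 903 in KO and 334 to 395 in KO/Kd cells. Most of it was Krt19, at 341 ± 50.6 in control and 223 ± 29.5 in KO/Kd cells, while Cdh1 and Krt5 did not pass the test (-0.06 and 0.02). Within the smooth muscle and pericyte list, the receptor Notch3 was at 25.9 ± 6.16 in control, 87.6 ± 20.3 in KO, 33.4 ± 2.74 in Kd and 1961 ± 154 in KO/Kd cells, and Rgs5, a pericyte marker, was at 38.2 ± 2.66 in control and 317 ± 63.4 in KO/Kd cells. Acta2 and Des rose by 0.28 and 0.30, and Cspg4, also a pericyte marker, fell from 1905 ± 114 to 1302 ± 179, by 0.55.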
